A study of Mus musculus with 36 samples.

Results

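Nanog binding in mouse embryonic stem cells kept for 3 passages in 2i medium was set against binding in serum medium, as 1 deposited peak list per condition. On chromosomes 1 to 19 and X, overlapping peaks of the lists were joined into regions, 1 bp being enough. This gave 39848 regions, of 84927 when all 14 peak lists of the series were merged the same way. The 3 passage list held 33184 peaks on these chromosomes and the serum list 25513.

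The cells of both lists were KH2, an established mouse embryonic stem cell line, with LIF in the medium. One group was grown for 3 passages in 2i medium with LIF. The other was grown in serum medium with LIF. The growth protocol describes irradiated CF1 fibroblasts as a feeder layer and does not say whether they were used in 2i, so some chromatin may come from feeder cells in an amount that was not measured. Each list stands for 2 samples in the labels, precipitated after formaldehyde fixation with 1 lot of Nanog antibody, lot 20100713, called lot 1 here. Age, clone and animal do not apply or are not given for this line, and no RNA sample was analysed, so the labelled cell type was not checked against its markers. Other lists of KH2 cells served for comparison: Sox2 and H3K4me3 of both media, Nanog of lot 1 after 24 h of 2i, Nanog of a second lot (lot 2, C01MG07) after 24 h of 2i and in serum cells labelled GFP-high, and Oct4.

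Nanog is a homeodomain transcription factor of the pluripotency network and binds enhancers together with Oct4 and Sox2, a high mobility group factor that pairs with Oct4 on composite DNA elements. 2i is a serum-free medium with inhibitors of MEK and GSK3 kinases that holds embryonic stem cells in a more uniform naive, or ground, state. H3K4me3 is a histone mark found mainly at active promoters, and regions without it are called distal here.

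There was 1 list per condition and no value per replicate, so no difference below could be tested against the spread between cultures. Intervals in brackets are 95% exact binomial (Clopper-Pearson) or, for medians, order-statistic intervals. They cover counting error only, and regions are not replicates. Read depth is unknown, because the lists hold no counts. The lists differed in ways besides the medium. The lowest −log10 q was 12.8 at 3 passages and 14.0 in serum, the median peak width was 662 and 606 bp, and the peaks covered 24.4 and 17.2 Mb. Their median fold enrichment over control, the authors' own value for each peak, was 8.90 and 12.1. The labels list 1 whole-cell extract, from serum cells, and no source used here states the control behind each list. The part of these differences in the results was not tested.

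At 3 passages Nanog was called at 14496 regions that had no serum peak, or 36.4% of all. Shared regions numbered 18643, or 46.8%, and 6709, or 16.8%, were called only in serum. With each list limited to its 25513 peaks of largest −log10 q, the counts were 8877 only at 3 passages, 8750 only in serum and 16604 shared. Equal length brings both sides close together by construction, so the larger number at 3 passages goes with the longer list. The 3 kinds of region stood in similar proportions on all chromosomes. The share only at 3 passages lay between 34.0% and 38.7% on every chromosome, and the share only in serum between 14.5% and 18.6%.

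Regions called in only one medium were the weaker ones of their list. The median fold of regions only at 3 passages was 7.16 (quartiles 5.88 and 9.40), against 11.9 for shared regions in the same list. In the serum list it was 9.18 for regions only in serum and 14.2 for shared regions. These regions mostly lay apart from shared ones. The median distance to the nearest shared region was 29271 bp for regions only at 3 passages and 34277 bp for regions only in serum, and 16.1% and 14.6% lay within 5 kb of one.

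The share of peaks called again in the other medium followed peak strength. Of the strongest decile of the 3 passage list by fold, 94.7% (93.9 to 95.4) met a serum peak, and of its weakest decile 38.4% (36.7 to 40.1). Of the strongest decile of the serum list 98.2% (97.6 to 98.6) met a 3 passage peak, and of the weakest decile 50.3% (48.3 to 52.3). Over whole lists the shares were 56.3% at 3 passages and 73.7% in serum, but 65.2% and 65.7% at equal length, where the weakest deciles gave 49.3% and 37.3%. The order between the media at the weak end thus turned with list length, while the strongest deciles stayed at 94.7% or more. Of the 1000 strongest peaks of each list, 967 of the 3 passage peaks met a serum peak and 991 of the serum peaks met a 3 passage peak.

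**Figure D1:**
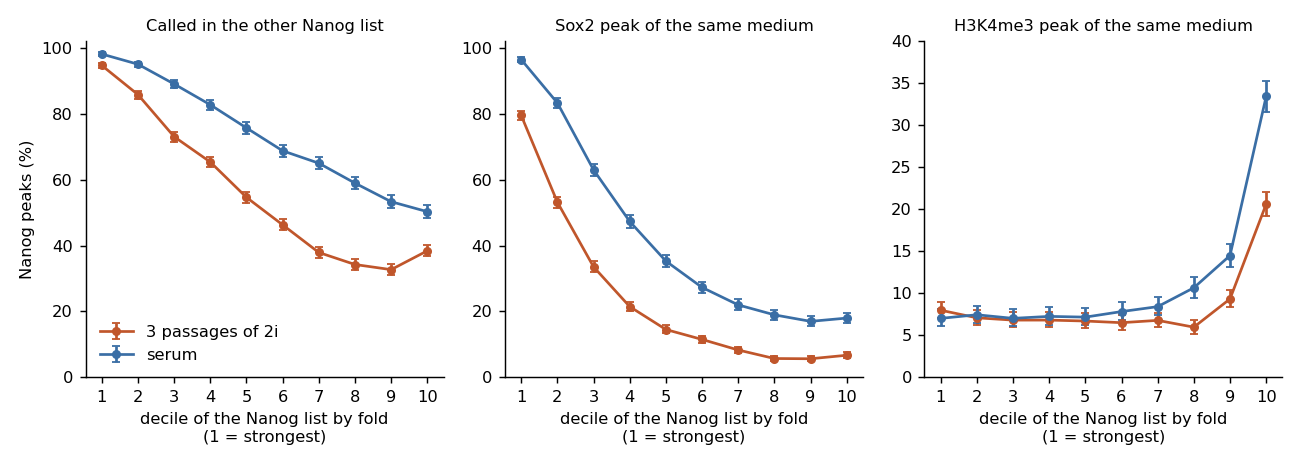
Nanog peaks in deciles of their list by fold enrichment (x axis, 1 = strongest) against the percentage that met a peak of the other Nanog list (left), of Sox2 of the same medium (middle) or of H3K4me3 of the same medium (right, shorter y axis), for 3 passages of 2i (orange) and serum (blue). Points are shares of 2543 to 3329 peaks and bars are 95% Clopper-Pearson intervals; overlap with the other list and with Sox2 is lower in weak deciles, while H3K4me3 overlap is highest in the weakest decile, 20.6% at 3 passages and 33.5% in serum.

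Within the shared regions the order of strength was partly rearranged. Both lists were ranked over the same 18643 regions, from percentile 0 for the weakest to 100 for the strongest fold, and the difference was taken as 3 passages minus serum. Spearman's rho between the 2 orders was 0.583, a description over regions that share libraries and any control. The absolute rank change had a median of 15.9 percentile points, and for 1 region in 10 it was 45.0 points or more. Of the shared regions 3068, or 16.5%, ranked at least 25 points higher at 3 passages, and 2937, or 15.8%, at least 25 points lower. Since ranks are relative, some regions must rank lower where others rank higher.

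The very top was reordered as well. All of the 100 strongest peaks of each list were called in the other medium. However, of the 100 strongest shared regions in each ranking 14 stood in both, and of the 1000 strongest 417. The 5 regions with the highest mean percentile held Sox2 and no H3K4me3 in both media, and each was also called by Nanog lot 2 and for Oct4 at 24 h. In the strongest decile, 79.5% of 3 passage peaks and 96.5% of serum peaks overlapped Sox2 of their medium, and 7.99% and 7.02% overlapped H3K4me3. Over all shared regions lot 2 was called at 69.9% at 24 h and 82.6% in GFP-high serum, and Oct4 at 24 h at 31.8%. At chr14:93225556-93226639 (all positions are mm9) the Nanog fold was 80.4 at 3 passages and 113 in serum. At chr1:45414332-45415595 it was 80.7 and 104, and at chr11:71315219-71316689 it was 70.0 and 108. The remaining pair, chr14:45613628-45614750 and chr8:88917260-88918478, had folds of 74.4 and 73.8 at 3 passages and of 94.6 and 94.2 in serum. Folds of the 2 lists stand side by side and need not be on one scale. On the rank scale these 5 regions differed by at most 0.23 points.

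**Figure D2:**
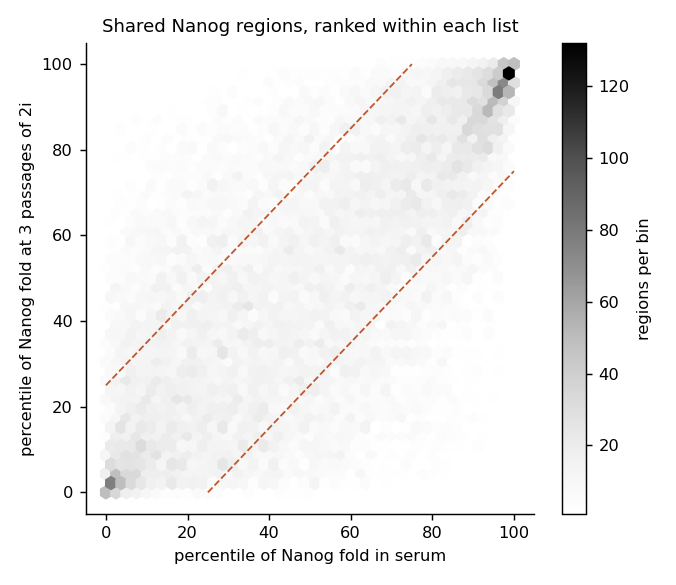
Each of the 18643 shared Nanog regions by its percentile of fold enrichment at 3 passages of 2i (y axis) and in serum (x axis), as hexagonal bins shaded by the number of regions. Dashed lines mark a change of 25 percentile points; 3068 regions lie above the upper line and 2937 below the lower one, and the densest bins sit at the strongest corner.

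The 6 regions with the largest rank rise all had folds within the strongest decile of the 3 passage list and were close to the weakest in serum. At chr8:75200453-75201747 the fold was 38.1 at 3 passages and 6.32 in serum, a change of 92.7 points. At chr14:41711065-41712127 it was 43.6 and 7.44, a change of 89.4 points. At chr11:113449871-113450829 it was 40.3 and 7.63, a change of 86.9 points. The other 3, at chr14:121748444-121749197, chr14:62654890-62657670 and chr11:6455199-6455977, had folds of 31.2, 29.2 and 34.0 at 3 passages and of 6.68, 6.69 and 7.44 in serum. Of all peaks in the strongest 3 passage decile 79.5% overlapped Sox2 of that medium, and of the weakest serum decile 18.0%. Of the 6 regions, 5 carried a Sox2 peak at 3 passages, close to the share of that strength, and none carried one in serum. The exception was the first, at chr8:75200453-75201747, which had no Sox2 peak in either medium. Its Nanog fold in GFP-high serum cells with lot 2 was 107, beside 6.32 in unsorted serum cells with lot 1. With lot 1 at 24 h it was 12.3. The 3 passage summit there was displaced by −447 bp from the serum summit. Only 2.10% of shared regions with 1 peak per list had summits over 200 bp apart. Whether both peaks mark one site was not tested.

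The 6 regions with the largest rank fall showed the mirror picture for Sox2. At chr4:124813335-124814323 the fold was 4.52 at 3 passages and 48.3 in serum, a change of −92.7 points. At chr5:117399634-117400505 it was 5.17 and 54.9, and at chr17:63700934-63701729 it was 4.74 and 43.0. The rest were chr1:66395748-66396628, chr1:64357863-64358531 and chr2:38772598-38773419. They had folds of 5.40, 4.62 and 4.41 at 3 passages and of 51.4, 37.5 and 36.4 in serum. At chr4:124813335-124814323 the 3 passage summit was displaced by 332 bp from the serum summit. Whether both peaks there mark one site was not tested. Of these 6 regions 5 held a Sox2 peak in serum and none held one at 3 passages. Their serum folds all lay within the strongest serum decile, where 96.5% of peaks overlapped Sox2 of that medium. In the weakest 3 passage decile that share was 6.69%. None of the 6 was called by lot 2 after 24 h of 2i, and all 6 were called by lot 2 in GFP-high serum cells. Over all shared regions these shares were 69.9% and 82.6%. Over the regions ranking at least 25 points lower at 3 passages they were 40.8% and 82.5%.

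Over all shared regions, the Nanog rank change went with the Sox2 state. Where a Sox2 peak was called only at 3 passages (1134 regions), Nanog ranked a median of 29.9 points higher at 3 passages (27.7 to 32.0). There 57.4% of regions ranked at least 25 points higher and 0.882% at least 25 points lower, against 16.5% and 15.8% of all shared regions. Where a Sox2 peak was called only in serum (3665 regions), the median change was −17.0 points (−17.9 to −15.7), with 4.58% at least 25 points higher and 37.0% at least 25 points lower. Regions with Sox2 in both media (5925) had a median change of −1.30 points, and those with Sox2 in neither (7919) one of 3.52 points. Seen from the other side, of the regions ranking at least 25 points higher 40.9% held Sox2 at 3 passages and 25.1% in serum. Of those ranking at least 25 points lower 20.5% held Sox2 at 3 passages and 66.3% in serum. Over all shared regions the shares were 37.9% at 3 passages and 51.4% in serum, so the regions that ranked higher were near the background for Sox2 at 3 passages and below it for Sox2 in serum.

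**Figure D3:**
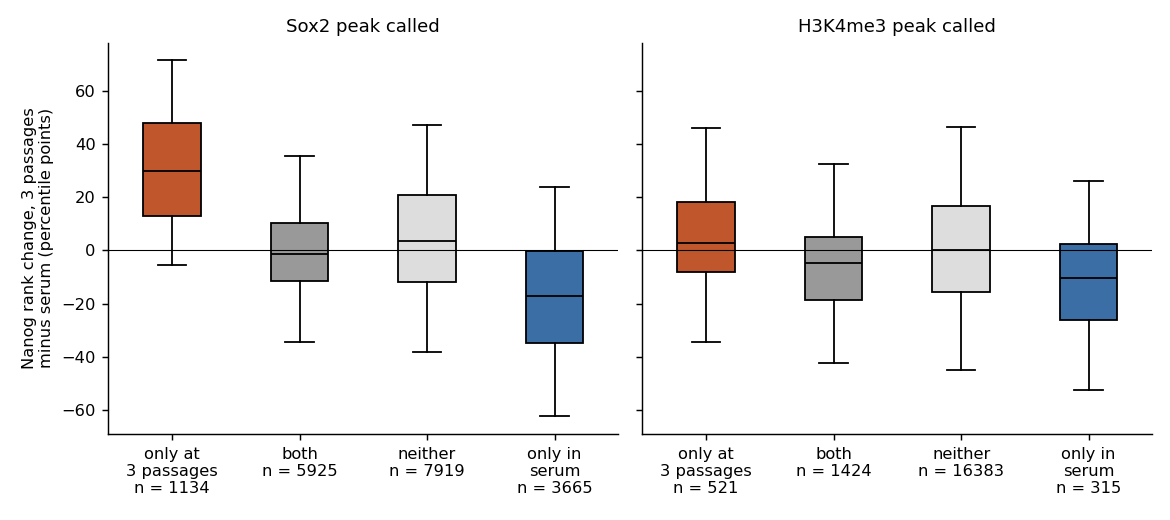
Nanog rank change at shared regions, 3 passages minus serum in percentile points (y axis), by whether a Sox2 peak (left) or an H3K4me3 peak (right) was called only at 3 passages of 2i, in both media, in neither, or only in serum. Boxes show the quartiles and the median and whiskers the 5th and 95th percentiles over regions; the Sox2 medians run from 29.9 to −17.0 points, and the H3K4me3 medians from 2.66 to −10.3.

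The starting strength of a region moved with this pattern, because a weak region can hardly rank lower and a strong one hardly higher. Regions with Sox2 only at 3 passages had a median serum percentile of 37.9 and those with Sox2 only in serum one of 62.5. Within quintiles of the serum percentile, weakest to strongest, the median change with Sox2 only at 3 passages was 48.5, 40.7, 28.1, 15.0 and 3.70 points. With Sox2 in neither medium it was 11.6, 5.73, −5.44, −14.8 and −27.7 points, so the median with Sox2 only at 3 passages was higher in every quintile. With Sox2 in both media it was 17.2, 13.1, 5.41, −0.52 and −3.80 points, also above that with Sox2 in neither in every quintile, which turns the order of the medians over all strengths. With Sox2 only in serum it was 4.15, −7.73, −18.0, −24.0 and −27.5 points. That is lower than with Sox2 in neither medium in the 4 weaker quintiles and close to it in the strongest. The Sox2 lists also differ in length, with 8749 peaks and a lowest −log10 q of 7.52 at 3 passages, from 1 sample in the labels, against 13116 peaks and 17.3 in serum, from 2 samples. With both Sox2 lists at 8749 peaks the medians were 23.8 points for Sox2 only at 3 passages and −22.3 points for Sox2 only in serum.

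Where Sox2 was called in both media, its own rank change ran with that of Nanog. Spearman's rho between the changes was 0.596 over 5925 regions. These regions were split into 3 equal groups by the Sox2 change. Where Sox2 ranked highest at 3 passages relative to serum, the median Nanog change was 13.5 points. In the middle group it was −2.54 points, and where Sox2 ranked lowest it was −13.5 points. Whether Nanog and Sox2 lists of a medium share a control library is not given, and its part in this relation was not tested.

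The lot 2 lists were ranked over the shared regions that were also called in both of them, and the change was taken as 24 h of 2i minus GFP-high serum. At 967 regions with Sox2 only at 3 passages its median was 15.3 points (13.9 to 17.2), beside 31.1 points at the same regions for the lot 1 change, which was ranked over all shared regions. At 1969 regions with Sox2 only in serum it was −9.25 points (−10.8 to −8.06), beside −10.5 points for lot 1. At 5174 regions with Sox2 in both media it was −2.45 points, beside −0.65 for lot 1, and at 3773 with Sox2 in neither 5.04 points, beside 12.9. Each pair of medians had the same sign, and the 2 lots differed most in size where Sox2 was called only at 3 passages. Over all 11883 such regions, rho between the lot 1 and lot 2 changes was 0.427. Lot 2 has 1 sample per list in the labels, and its cells differ by sorting and time as well as by medium.

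In lot 1, the median ranks at 24 h of regions that moved lay between those of serum and 3 passages. Regions ranking at least 25 points higher at 3 passages had median percentiles of 24.1 in serum, 57.8 at 24 h and 68.1 at 3 passages, over 3025 regions called in all 3 lists. Those ranking at least 25 points lower had 67.6 in serum, 34.5 at 24 h and 22.8 at 3 passages, over 2815 regions. The median lot 1 change at 24 h was 31.9 points in the first group and −30.6 points in the second. The groups were chosen for large differences and the serum list enters both changes. The direction and the size of the change at 24 h are thus partly built in. In lot 2, free of the serum list of lot 1, the first group had a median change of 13.8 points. There 72.4% of regions ranked higher at 24 h, over the 2474 of its 3068 regions called in both lot 2 lists. The second had −19.1 points, with 22.4% higher at 24 h, over 1099 of its 2937 regions, so most of that group had no lot 2 value.

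Co-binding with Sox2 was concentrated in shared regions. At 3 passages a Sox2 peak of that medium overlapped 6.22% (5.83 to 6.63) of regions only at 3 passages and 37.9% (37.2 to 38.6) of shared regions, against 20.4% of all regions. A serum Sox2 peak overlapped 51.4% (50.7 to 52.2) of shared regions and 19.5% (18.5 to 20.4) of regions only in serum, against 28.4% of all. The lower share at 3 passages than in serum at shared regions went with the shorter Sox2 list. With both at 8749 peaks the values were 37.9% at 3 passages and 38.4% in serum, and with the 24 h Sox2 list in place of 3 passages 55.5%. Regions called for Nanog in one medium held the Sox2 of that medium more often than that of the other. The 3 passage and serum shares were 6.22% and 2.85% for regions only at 3 passages, and 2.30% and 19.5% for regions only in serum. At equal Sox2 length the serum shares were 1.15% and 9.88%, so the order held.

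Most of the strongest Nanog peaks carried Sox2 in both media. In the strongest decile 79.5% (78.1 to 80.9) of the 3 passage peaks overlapped Sox2 of the same medium, against 96.5% (95.7 to 97.2) of the serum peaks. In the weakest decile it was 6.69% and 18.0%. At equal Sox2 length the serum values were 91.9% and 9.83%, so part of the gap between media in the strongest decile was left. The Nanog lists kept their own lengths, so that decile held 3318 peaks at 3 passages and 2551 in serum. The part of this in the remaining gap was not tested. In the opposite direction, 91.8% (91.2 to 92.4) of the Sox2 peaks lay on a Nanog peak at 3 passages and 84.0% (83.4 to 84.6) in serum, with the longer Nanog and the shorter Sox2 list at 3 passages. Nanog and Sox2 summits lay close together at shared regions. The median distance was 32 bp (quartiles 14 and 59) at 3 passages and 25 bp (11 and 48) in serum, and 68.5% and 76.9% lay within 50 bp.

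Regions with a Sox2 peak in only one medium included regions with high Nanog folds. At chr9:3520816-3521785, with Sox2 only at 3 passages, the Nanog fold was 82.9 at 3 passages and 19.2 in serum. At chr10:78504911-78506026 it was 79.1 and 14.6, and at chr4:72304385-72305322 it was 75.4 and 24.7. They ranked 34.0, 48.3 and 23.0 points higher at 3 passages than in serum. With Sox2 only in serum, the fold at chr8:50279833-50281192 was 13.4 at 3 passages and 96.5 in serum. At chr2:136336569-136337618 it was 23.8 and 95.1, and at chr5:121383724-121384425 it was 29.9 and 94.7. Their rank changes were −43.7, −17.8 and −10.7 points, so these sites kept a Nanog peak of middle to high rank.

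Oct4 was also found mainly at shared regions. The 24 h Oct4 list overlapped 4.99% of regions only at 3 passages, 31.8% of shared regions and 3.85% of regions only in serum, against 17.4% of all. For the serum Oct4 list the shares were 1.21%, 21.7% and 4.20%, against 11.3% of all. There was no Oct4 list at 3 passages among the lists analysed. Among shared regions ranking at least 25 points higher at 3 passages, 26.8% held Oct4 at 24 h and 6.45% held it in serum. Among those ranking at least 25 points lower, the shares were 19.6% and 21.5%.

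Nanog binding was mostly distal in both media. An H3K4me3 peak of the same medium overlapped 8.46% (8.16 to 8.76) of the 3 passage peaks and 11.1% (10.7 to 11.5) of the serum peaks. Regions only at 3 passages were the least often marked, with H3K4me3 of 3 passages at 6.09% (5.71 to 6.49) against 9.57% of all regions. Shared regions had it at 10.4% (9.998 to 10.9), and regions only in serum at 14.7% (13.9 to 15.6). With the serum H3K4me3 list the shares were 4.96%, 9.33% and 16.6%, against 8.97% of all, so the order was the same with the mark of either medium. At equal Nanog list length, regions only at 3 passages had the 3 passage mark at 5.69% and regions only in serum the serum mark at 16.4%. H3K4me3 peaks were narrower at 3 passages, with a median of 1242 bp against 1505 bp in serum. The part of this width in the shares was not tested, but with a Nanog summit required inside the mark the shares were 4.39% and 14.7%.

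H3K4me3 was most frequent at the weak end of both lists. At 3 passages it overlapped 7.99% (7.09 to 8.96) of the strongest decile, 5.97% to 7.08% of deciles 2 to 8, 9.33% of the ninth and 20.6% (19.3 to 22.0) of the weakest. In serum it overlapped 7.02% (6.06 to 8.08) of the strongest decile, 7.02% to 10.7% of deciles 2 to 8, 14.5% of the ninth and 33.5% (31.6 to 35.3) of the weakest. Across most of the 3 passage list the share was thus flat. Regions only in serum with H3K4me3 and no Sox2 in serum had a median serum fold of 7.13, against 9.43 for those with neither. Distance to the mark was taken over all regions. Those overlapping it entered at no distance, so the unequal overlap is part of the medians. For the 3 passage H3K4me3 list, the median was 36098 bp for regions only at 3 passages and 39842 bp for shared regions. It was 43173 bp for regions only in serum. With the serum H3K4me3 list the medians were 36465, 40655 and 36910 bp, so the order of the kinds of region depended on the list.

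A change of H3K4me3 went with a smaller Nanog rank change than a change of Sox2. At 521 shared regions with the mark only at 3 passages the median was 2.66 points (1.17 to 4.96), and at 315 with the mark only in serum it was −10.3 points (−12.4 to −6.82). Regions marked in both media (1424) had −4.69 points and unmarked ones (16383) 0.072 points. Across regions marked in both, rho between the 3 passage and serum folds was 0.719, beside 0.583 over all shared regions. Across regions with Sox2 in both media it was 0.685. Of the regions ranking at least 25 points higher at 3 passages 92.1% were unmarked in both media, beside 87.9% of all shared regions.

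**Figure D4:**
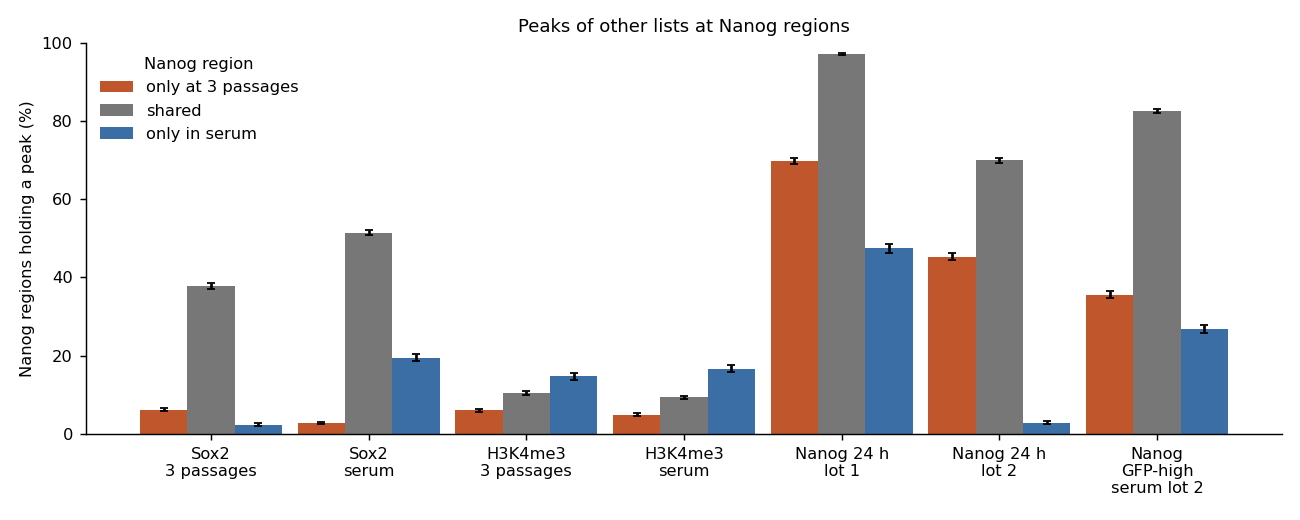
Percentage of Nanog regions (y axis) that hold a peak of 7 other lists, for 14496 regions only at 3 passages (orange), 18643 shared regions (grey) and 6709 regions only in serum (blue). Bars are shares and error bars 95% Clopper-Pearson intervals; Sox2 and the other Nanog lists are most frequent at shared regions, and H3K4me3 at regions only in serum.

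Other Nanog lists split the regions called in one medium unevenly. After 24 h of 2i, lot 2 was called at 45.3% (44.5 to 46.1) of regions only at 3 passages and 2.91% (2.52 to 3.34) of regions only in serum, against 49.7% of all. With lot 1 at 24 h these shares were 69.7% and 47.4%, against 78.7% of all. In GFP-high serum cells lot 2 was called at 35.6% of regions only at 3 passages and 26.8% of regions only in serum, against 56.1% of all. So regions absent from the unsorted serum list were called in GFP-high serum cells at a share above that of regions only in serum. Regions only at 3 passages that were called in both 24 h lists and not in GFP-high serum cells numbered 2529, or 17.4% of their kind. Regions only in serum that were called in GFP-high serum and in neither 24 h list numbered 759, or 11.3% of theirs.

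The 5 strongest regions only at 3 passages and outside the GFP-high serum list were called in both 24 h lists. They were chr1:156841687-156842480 with a fold of 47.2, chr17:86273157-86273953 with 40.3, chr7:73642505-73643682 with 38.1, chr10:77925930-77927145 with 37.5 and chr6:82796483-82797459 with 35.2. A Sox2 peak was called at 4 of them at 3 passages and at none in serum, and the one on chromosome 10 also bore H3K4me3 in both media. Their folds lay within the strongest 3 passage decile, where 79.5% of peaks overlapped Sox2 of that medium. The 5 strongest regions only in serum and in no 2i list of KH2 cells all held Sox2 in serum, none held it at 3 passages, and none bore H3K4me3. They were chr17:41041068-41042197 with a fold of 49.0, chr18:32013166-32013961 with 48.0, chr2:47185970-47186601 with 44.7, chr8:9886388-9887350 with 41.4 and chr15:82734733-82735525 with 41.3. Of these, 3 were called in GFP-high serum cells. All 5 folds lay within the strongest serum decile, where 96.5% of peaks overlapped Sox2 and 7.02% H3K4me3 of that medium. The Sox2 and H3K4me3 counts in serum are thus close to the shares of peaks of that strength.

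Rankings were also compared between all pairs of 5 KH2 Nanog lists, over 11574 regions called in all of them. These had 1 peak each in the 3 passage and serum lists. In the other lists the strongest peak was taken where there were several. The 3 passage order was closest to that of lot 2 at 24 h, with rho of 0.826, and then to lot 1 at 24 h, with 0.765. It was further from GFP-high serum, at 0.683, and from unsorted serum, at 0.564. The 2 lots at 24 h of 2i were less alike, at 0.595, than either was to 3 passages. Unsorted serum stood nearest to GFP-high serum, at 0.637, but GFP-high serum stood nearer to 3 passages, at 0.683. These are descriptions of single lists, and no spread between replicates stands behind them. The 3 passage list and both lot 2 lists held peaks on unplaced sequences, and the serum list and lot 1 at 24 h held none. The part of this difference in the order of the lists was not tested.

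Summits hardly moved. At 18440 shared regions with 1 peak in each list, the distance between the 3 passage and the serum summit had a median of 27 bp (quartiles 12 and 49). Within 50 bp lay 75.9% (75.3 to 76.5), within 100 bp 93.5% and within 200 bp 97.9%. The median signed displacement was 0 bp. Distances were shorter at strong regions, with medians of 34.0, 29.5, 26.0 and 21.0 bp in quartile groups of the mean percentile, weakest to strongest. Regions with Sox2 in both media had a median of 24 bp and those with Sox2 in neither 30 bp, but the first were also stronger, at a median serum percentile of 76.2 against 30.6. Between other pairs of lists the same measure, over the 11574 regions in all 5, ran from 18 bp (lot 1 at 24 h and serum) to 35 bp, and 3 passages and serum stood at 25 bp.

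**Figure D5:**
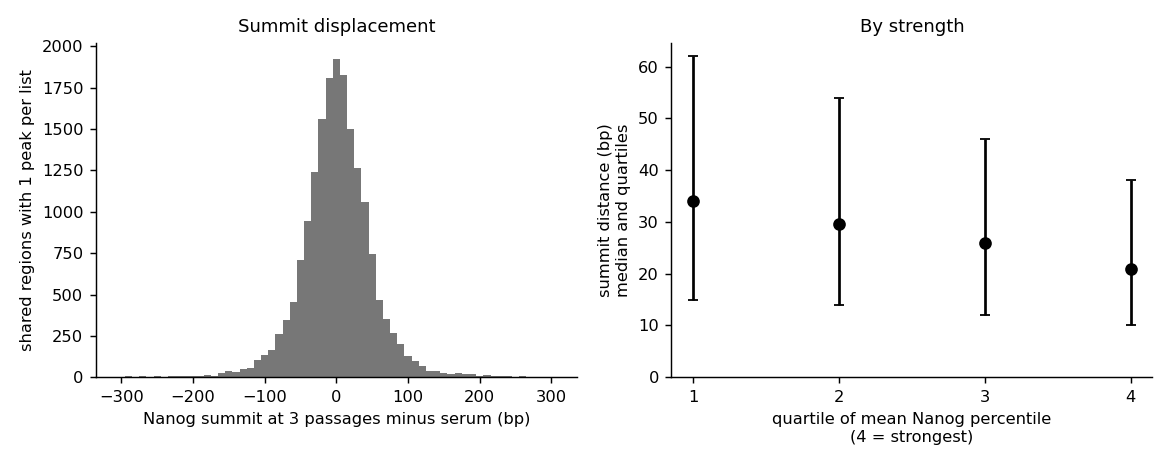
Left, signed distance in bp from the serum summit to the 3 passage summit (x axis, shown between −300 and 300) against the number of shared regions with 1 peak per list. Right, median distance in bp with quartiles (bars) by quartile of the mean Nanog percentile, from 1, weakest, to 4, strongest; displacements centre on 0 and the median is 34.0 bp in the weakest and 21.0 bp in the strongest quartile.

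A small number of summits moved further. At 387 regions, or 2.10%, summits lay more than 200 bp apart, and at 143 more than 500 bp apart, with 1797 bp as the largest. Such shifts were found in wide regions, at 7.61% of those of 1100 bp or more and 0.032% of those under 600 bp, where little room is left. At regions with a 3 passage H3K4me3 peak 4.88% (3.95 to 5.96) moved by more than 200 bp, against 1.78% (1.59 to 2.00) of those without. These groups were not matched for region width, and the part of width in this difference was not tested. Among regions in the top quartile of both lists, the 3 largest shifts were 1367 bp at chr17:17875218-17877832, 1091 bp at chr6:29581403-29583741 and 827 bp at chrX:55294789-55296603. All 3 held Sox2 and no H3K4me3 in both media. Their Nanog folds were 58.8, 34.0 and 33.9 at 3 passages and 83.2, 26.6 and 24.6 in serum. These lay in the strongest 3 passage decile and in the 2 strongest serum deciles. Sox2 of the medium overlapped 79.5% of that 3 passage decile, and 96.5% and 83.3% of those serum deciles. For H3K4me3 the shares were 7.99%, 7.02% and 7.45%. The caller also split regions differently. In 42 shared regions there were 2 peaks at 3 passages and 1 in serum, in 158 there was 1 at 3 passages and 2 in serum, and in 3 both lists had 2.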

How the data were processed

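Chromatin bound by Nanog, Sox2, Oct4 or H3K4me3 was fixed, sheared, precipitated and read by Illumina sequencing, as the labels' protocols describe. MACS2, the aligners BWA 0.5.7 and Bowtie 0.12.7, and the genome build mm9 are named in the submitters' processing notes, which do not tie an aligner to a list. The authors deposited 1 narrowPeak list per condition, whose peak names speak of pooled replicates. In each list the authors give a fold enrichment, a ratio over a control, the q-value as −log10 q, and in another deposited column the offset of the summit from the peak start. The rule by which peaks were selected and the read depth are not given. Sox2 libraries carry RNA as their labelled molecule but have peak files, and were treated as ChIP-seq.

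Peaks on chromosomes 1 to 19 and X were merged at 1 bp overlap. Fold served to rank and describe peaks within a list, and ranks were compared over shared regions, which gives both lists equal length. A region with several peaks took the highest fold. A move is a rank change of 25 percentile points or more. Sox2 or H3K4me3 was assigned at 1 bp overlap. Counts, shares with 95% Clopper-Pearson intervals, medians and rho were computed with Python 3.11.15, numpy 2.4.6, pandas 2.3.3 and scipy 1.17.1, and drawn with matplotlib 3.10.9. The code was tested on simulated peak lists. With 1 list per condition no test was made.

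Regions were named by rule: the 6 largest rank changes each way, the 5 highest mean percentiles, the 5 strongest regions of each medium outside the GFP-high serum list (3 passages) or outside any KH2 2i list (serum), the 3 largest summit shifts among top-quartile regions, and the 3 highest Nanog folds among regions with Sox2 in one medium only. The comparison, measures and rule were chosen with earlier results of these data known. Alternatives were lists of equal length, a minimum or common −log10 q, a 50% overlap, joining peaks up to 1000 bp apart, leaving out X, other ranking measures and other Sox2 and H3K4me3 lists. Moves of 15 and 40 points, quintiles of serum strength, ranks in the lot 2 lists and other Sox2 lists behind the rank changes were added after the data were seen. Planned motif and gene-list steps were not run and no region was assigned to a gene, because no mm9 genome or annotation was used here.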

Additional observations from a re-analysis of the deposited data

Results flagged for a closer look

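The chromosomes that were left out differed between the 2 Nanog lists. The 3 passage list held 25 peaks on unplaced sequences and 1 on Y, while the serum list held 0 on unplaced sequences and 21 on Y. These peaks entered no comparison. The other Nanog lists of KH2 cells split in the same way. Lot 1 at 24 h held 26 peaks on Y and 0 on unplaced sequences. Lot 2 held 0 on Y and 22 on unplaced sequences at 24 h, and 0 and 33 in GFP-high serum. In this the 3 passage list was like the lot 2 lists, and the serum list like lot 1 at 24 h. No source used here states whether one set of reference sequences served all these lists. The share of regions only at 3 passages was 34.2% on X, within its range over the autosomes of 34.0% to 38.7%. The part of the alignment in the other results was not tested.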

How the results depend on the processing

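No paired analysis was possible because each condition had 1 list pooled by the authors, whose columns carry no replicate; for the same reason no replicate could be left out. Of 125 alternative values for 14 main results, 86 stayed inside the main interval or within 1.5 times the main count and 1 changed sign. The minimum −log10 q of 10 removed no peak, because the lowest values were 12.8 at 3 passages and 14.0 in serum. Its values therefore equal the main ones by construction. They are counted among the 86 and, for the other results, among the 355 given below. At equal Nanog list length, regions only at 3 passages numbered 8877. The strongest deciles were called again in 95.5% at 3 passages and 96.9% in serum, rho was 0.571, the median summit distance 26 bp, and H3K4me3 stood at 5.69% of regions only at 3 passages. At that length Sox2 stood at 41.8% of shared regions at 3 passages and 54.0% in serum, the rank change with Sox2 only in serum was −18.0 points, and lot 2 at 24 h was called at 59.7% of regions only at 3 passages. That last share was 48.2% at a common lowest −log10 q. With a 50% overlap the H3K4me3 shares were 4.70% for regions only at 3 passages and 15.1% for regions only in serum. With summits inside the mark they were 4.39% and 14.7%, with the serum mark 4.96% for regions only at 3 passages, and with the 3 passage mark 14.7% for regions only in serum. Ranked by −log10 q, the strongest deciles were called again in 97.7% at 3 passages and 99.1% in serum. With a Sox2 summit within 100 bp of the Nanog summit, Sox2 stood at 34.5% of shared regions at 3 passages and 48.4% in serum, and the rank change with Sox2 only at 3 passages was 25.6 points. With Sox2 lists of equal length the serum share was 38.4% and the rank changes 23.8 points (Sox2 only at 3 passages) and −22.3 points (only in serum). With the 24 h Sox2 list the share was 55.5% and the changes 17.8 and −18.9 points. Within quintiles of serum strength the change with Sox2 only at 3 passages was 48.5, 40.7, 15.0 and 3.70 points in quintiles 1, 2, 4 and 5. With Sox2 only in serum it was 4.15 points in the weakest quintile, the value of opposite sign, and −7.73, −18.0, −24.0 and −27.5 points in the others. In the weakest quintile there is little room for a lower rank. In the lot 2 lists the changes were 15.3 and −9.25 points. For the other results, 355 of 498 alternative values stayed inside the main interval, 79 were higher and 64 lower. The cause of these shifts was not tested. Single lists, unknown depth and unequal list lengths limit every comparison.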
